A study of Mus musculus with 6 samples.

Results

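The genes described here are the subunits of the proteasome and of its interferon-inducible form, the immunoproteasome, with their activators and assembly chaperones. They were taken by symbol, as every row of the gene table named Psma, Psmb, Psmc, Psmd, Psme, Psmf or Psmg followed by digits alone. The rule found 48 genes of 27998. The table has 50 rows that start with Psm, and the other 2, Psme2b and Psmc3ip, fell outside the rule. The 48 genes lie on 16 chromosomes of the mm10 genome (GENCODE vM21). They were measured as unique molecular identifiers (UMIs) in single brain cells of C57BL/6 mice, which were 6 to 8 weeks old in both groups. In the MCAO group the middle cerebral artery had been occluded, a model of ischemic stroke, and the other group had a sham operation. Brains were taken at 24 h, and each group has 3 droplet libraries. The labels give neither the number of animals behind a library nor their sex, the side or region of the brain, or how long the artery was closed. Cells came from a papain digest cleared of myelin debris on Percoll and stained for viability, so the classes are those of what this preparation left. In summed profiles, fewer cells that express a gene and less RNA of it per cell cannot be told apart.

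The proteasome degrades proteins tagged with ubiquitin. Its core particle is a barrel of outer alpha rings (Psma genes) and inner beta rings (Psmb genes), and a regulatory particle with a base of ATPases (Psmc genes) and a lid (Psmd genes) binds, unfolds and feeds in the substrate. The cutting is done by the products of Psmb5, Psmb6 and Psmb7, with chymotrypsin-like, caspase-like and trypsin-like activity. In immune cells, and in other cells exposed to interferon, the products of Psmb8, Psmb9 and Psmb10 are built into new core particles in place of those of Psmb5, Psmb6 and Psmb7, which changes the peptides offered to MHC class I molecules. Psme1 and Psme2 encode the subunits of an interferon-inducible activator that caps the core. In the brain the inducible subunits are known mainly from microglia, cells of the vessels and immune cells that enter from the blood.

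The libraries held 8104 to 11772 barcodes and 25135690 to 42848023 UMIs, and 52658 of 58528 barcodes were kept as cells. The median kept cell had 2325 to 2398 UMIs in sham libraries and 2758 to 3398 in MCAO libraries. Library pairs shared 77 to 184 barcode sequences. Cells fell into 31 clusters that were named by marker genes, and a class called microglia, for example, holds microglia-like cells. The 12 classes with at least 20 cells in every library were tested. Levels are UMIs per 1000000 UMIs (CPM) of a class's summed profile, scaled with TMM factors, as a value per library or as mean ± SD (n = 3 libraries). Changes are the log2 of MCAO over sham ± SE, and adjusted p-values come from the quasi-likelihood test of edgeR, adjusted by Benjamini-Hochberg over all genes tested in the class. A gene is called higher or lower where the adjusted p is under 0.05. The labels do not call the libraries separate animals, so the p-values cover the spread from library to library, part of which may be technical.

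Before the results on microglia and endothelial cells, their clusters need describing, because sham and MCAO cells lay mostly in different ones. Of the sham microglia 95.2% were in a cluster led by P2ry12 and Siglech, which held 1.66% of the MCAO microglia. The others were in clusters led by Ccl12 and Tnf (52.6% of the MCAO microglia), Mmp12 and Lpl (36.7%) and Spp1 and Cd72 (9.001%). The last pair had low microglia marker scores (0.321 and 0.2999, against 0.946 in the P2ry12 cluster). Values without these 2 clusters, an alternative chosen after seeing the data, are given for some results only. All 10 microglia markers were lower in MCAO microglia, with a sum of 27849 to 30075 CPM in sham and 11524 to 12510 in MCAO. Of the 9 markers of monocyte-derived cells 7 were higher there (400 to 430 and 626 to 756 CPM). In endothelial cells 3 of the 10 endothelial markers were higher and 5 lower (29307 to 30718 and 23965 to 24188 CPM), and 8 of the 9 markers of monocyte-derived cells were higher (646 to 683 and 848 to 945 CPM). Of the astrocyte markers 10 of 10 were higher in endothelial cells (594 to 638 and 887 to 1008 CPM) and 8 of 10 in microglia (396 to 450 and 471 to 600 CPM). Pericyte markers were higher in 8 of 8 (97 to 118 and 159 to 167 CPM) and 7 of 8 (55 to 80 and 80 to 125 CPM), and erythrocyte markers in 4 of 5 (23 to 34 and 150 to 169 CPM) and 3 of 5 (14 to 34 and 138 to 471 CPM), in the same order. The part of these markers in the changes below was not tested.

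In the sham libraries the levels of the inducible members differed widely between classes. Psmb8 was highest in monocyte-derived cells (866 ± 67.5 CPM) and T or NK lymphocytes (856 ± 21.9), whose libraries overlapped. Endothelial cells (392 ± 12.7) came next, above microglia (359 ± 21.4), border macrophages (325 ± 29.3) and neutrophils (308 ± 34.8), each of which overlapped its neighbour. Fibroblasts (143 ± 33.3) and pericytes (77.6 ± 15.5) followed without overlap. Smooth muscle cells (38.5 ± 11.5), astrocytes (36.8 ± 14.8), choroid plexus epithelium (26.5 ± 4.73) and oligodendrocytes (25.5 ± 2.96) were lowest and overlapped in turn. Psmb9 ran from 313 ± 38.2 CPM in monocyte-derived cells to 8.37 ± 5.56 in oligodendrocytes, and Psmb10 from 279 ± 47.6 to 21.8 ± 5.49 in the same classes. Psmb10 in endothelial cells (260.0 ± 3.67) overlapped that in monocyte-derived cells. The mean of the highest class was 33.9 times that of the lowest for Psmb8, 37.4 times for Psmb9 and 12.8 times for Psmb10. The activator genes had the same end classes, with a ratio of 17.0 for Psme1 and 8.06 for Psme2.

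The constitutive catalytic members differed far less between classes. Psmb5 ranged 2.95-fold, from 95.8 ± 14.5 CPM in neutrophils to 282 ± 2.86 in choroid plexus epithelium. Psmb6 ranged 2.56-fold (169 ± 20.9 to 433 ± 19.99) and Psmb7 2.73-fold (86.2 ± 18.5 to 236 ± 33.6), both from neutrophils to oligodendrocytes. By their means, oligodendrocytes, the myelin-forming cells, thus stood last for the 3 inducible members and first for Psmb6 and Psmb7. Their libraries overlapped those of the neighbouring class for each of these genes except Psmb10. As a description over the 12 class means, which come from the same libraries, the profile of Psme2 had a mean correlation of 0.87 with those of Psmb8, Psmb9 and Psmb10, that of Psme1 0.81 and that of the alpha ring gene Psma1 0.75. The profile most like those of Psmb5, Psmb6 and Psmb7 was that of Psmd2, whose product is a scaffold of the base (0.83, and -0.22 with the inducible members). Psmb11, a catalytic subunit gene known from the thymus, had 10 UMIs over all barcodes and was tested in no class. Psma8, an alpha ring gene known from testis, was tested only in microglia and endothelial cells, where it averaged 7.05 and 14.5 CPM in sham and did not pass.

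By the gene models of GENCODE vM21 on mm10, the inducible catalytic genes are Psmb8 (ENSMUSG00000024338) at chr17:34197721-34201454 (plus strand), Psmb9 (ENSMUSG00000096727) at chr17:34181987-34187764 (minus strand) and Psmb10 (ENSMUSG00000031897) at chr8:105935735-105938444 (minus strand). Their constitutive partners are Psmb5 (ENSMUSG00000022193) at chr14:54614119-54618022 (minus strand), Psmb6 (ENSMUSG00000018286) at chr11:70525367-70527858 (plus strand) and Psmb7 (ENSMUSG00000026750) at chr2:38588036-38644087 (minus strand). The activator genes lie near each other, Psme1 (ENSMUSG00000022216) at chr14:55578123-55581529 (plus strand) and Psme2 (ENSMUSG00000079197) at chr14:55587441-55591113 (minus strand).

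The promoters of the 3 inducible catalytic genes and of Psmb6 are printed here because these members went different ways after MCAO. Each is the 250 bases before the start site in RefSeq's annotation of GRCm38.p6, read 5′ to 3′ on the gene's strand, with matches to searched motifs in capitals. Psmb8 is shown from chr17:34197945-34198194 on the plus strand, and Psmb9, its neighbour in the MHC region, from chr17:34187331-34187580 on the minus strand. Psmb10 is shown from chr8:105938393-105938642 on the minus strand and Psmb6 from chr11:70525107-70525356 on the plus strand. The GENCODE models of the 3 inducible genes start further upstream than RefSeq's. The stretches of Psmb8 and Psmb9 therefore lie wholly inside those models, and that of Psmb10 overlaps its model.
Psmb8: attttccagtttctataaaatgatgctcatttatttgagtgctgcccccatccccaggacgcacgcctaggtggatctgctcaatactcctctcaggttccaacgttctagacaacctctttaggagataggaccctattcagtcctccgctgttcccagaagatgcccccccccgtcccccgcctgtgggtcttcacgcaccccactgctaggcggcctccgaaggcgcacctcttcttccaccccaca
Psmb9: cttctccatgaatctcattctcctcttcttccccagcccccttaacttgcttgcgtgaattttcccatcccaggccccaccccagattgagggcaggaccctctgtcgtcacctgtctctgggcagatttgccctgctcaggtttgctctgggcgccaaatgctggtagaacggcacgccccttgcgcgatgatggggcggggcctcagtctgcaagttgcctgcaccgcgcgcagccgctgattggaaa
Psmb10: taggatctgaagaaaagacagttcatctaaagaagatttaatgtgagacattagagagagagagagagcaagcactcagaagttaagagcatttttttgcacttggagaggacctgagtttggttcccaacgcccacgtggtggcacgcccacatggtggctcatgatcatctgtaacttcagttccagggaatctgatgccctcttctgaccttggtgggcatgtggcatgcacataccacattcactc
Psmb6: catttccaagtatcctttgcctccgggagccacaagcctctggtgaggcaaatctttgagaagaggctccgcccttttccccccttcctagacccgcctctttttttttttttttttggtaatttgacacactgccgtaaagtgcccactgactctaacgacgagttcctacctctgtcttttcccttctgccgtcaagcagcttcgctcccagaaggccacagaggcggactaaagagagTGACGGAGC

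In windows of 300 bases, which add the 50 bases after the start, 2 motifs were searched on both strands. They were GAAA, any 2 bases and GAAA again (a pair of sites for interferon regulatory factors) and TGACNNNGC (the antioxidant response element, bound by the products of Nfe2l1 and Nfe2l2). RefSeq windows matched 40 of the 48 members, in 43 windows. The interferon pair was in 5 of 43 (11.6%) against 3.44% of the 32841 windows of all genes, and the antioxidant element in 6 (13.95%) against 12.4%. Psmb6 held TGACGGAGC with its first base 9 bases before the start, the capitals in its sequence above. Psme1 held TTTCGCTTTC, the interferon pair on the other strand, 10 bases after its start. The other windows with the interferon pair were those of Psmb3, Psmd4, Psmg4 and Psmd9, which are no inducible members. No letters of these forms were in the windows of Psmb8, Psmb9, Psmb10 or Psme2. The windows of Psmb8, Psmb9 and Psme1 lie wholly inside their GENCODE models, so the bases before the GENCODE starts of these genes were not searched. The antioxidant element was also in the windows of Psmb5, Psmc6, Psmd9, Psmd12 and Psme4. A match describes letters only, since no binding was measured.

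After MCAO most members of the core and regulatory particles were higher in microglia and border macrophages, and many were in endothelial cells. Of all members 21 were higher in smooth muscle cells and 16 in astrocytes by edgeR, and DESeq2 called 12 and 2. Psmb9 was lower in 6 of the 10 classes that tested it, and in the other 4 it did not pass. Its call in fibroblasts was lost in 8 of 13 alternatives. Psmb8, Psmb10, Psme1 and Psme2 were lower too in endothelial and monocyte-derived cells. The calls are those of whole classes, and an endothelial cluster described further on went the other way for Psmb8 and Psmb9.

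**Figure D1:**
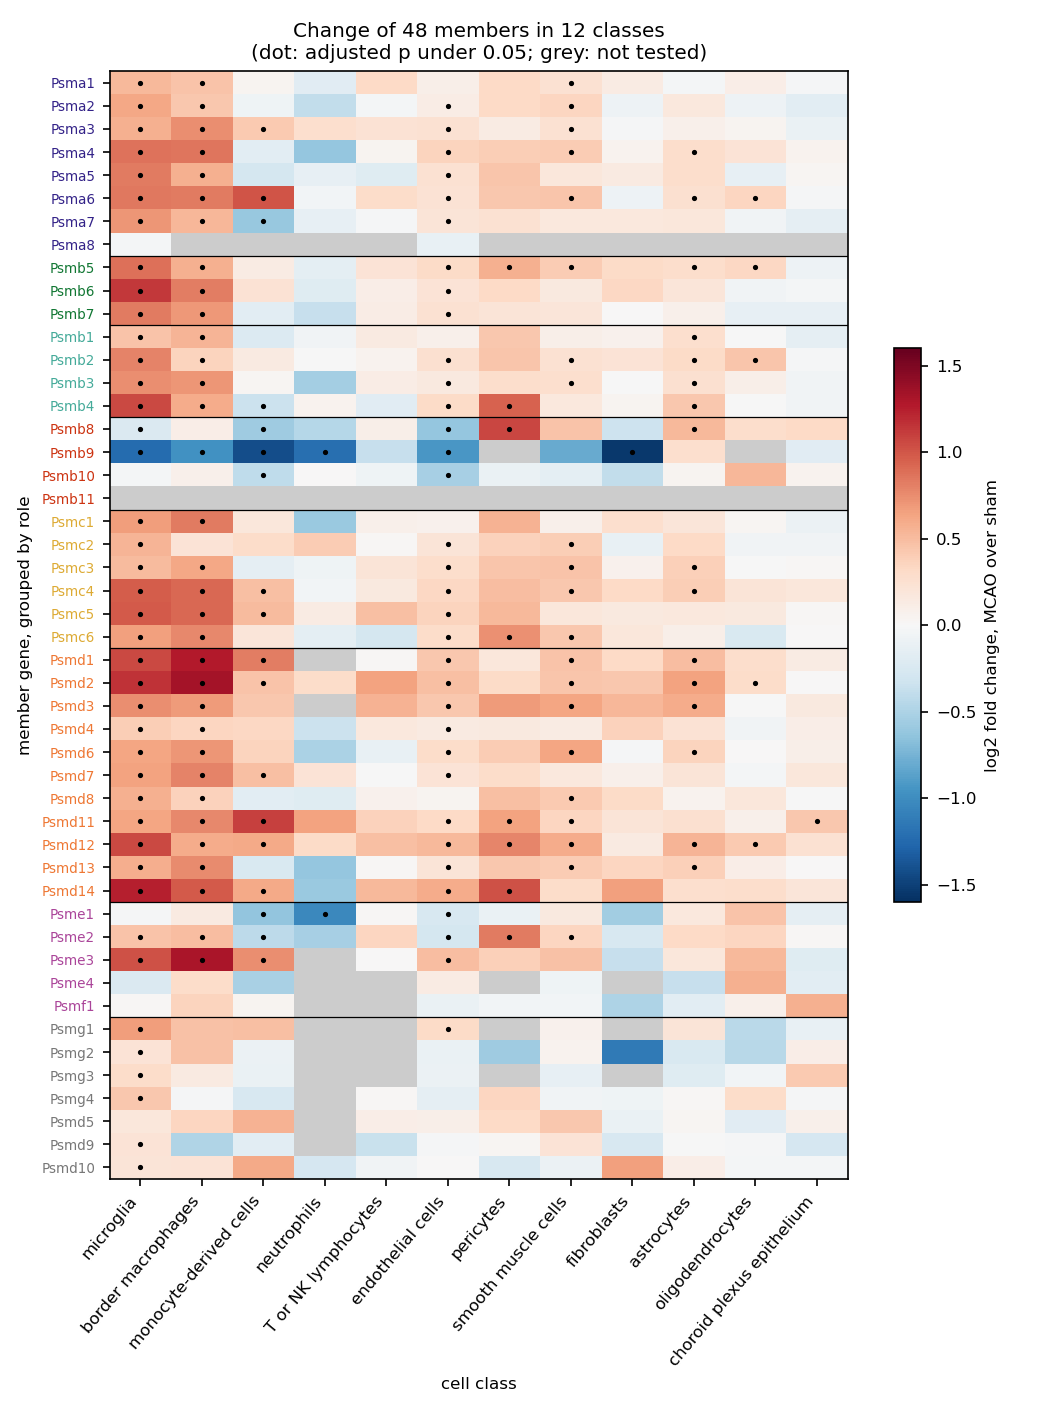
Log2 fold change of MCAO over sham (colour) for the 48 members (rows, by role) in 12 classes (columns), with a dot where edgeR's adjusted p is under 0.05 and grey where a gene was not tested. Microglia have 39 members higher and 2 lower, while Psmb9 is lower in 6 columns.

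Microglia, the resident macrophages of the brain, had 39 of 48 members higher after MCAO, 2 lower and 6 that did not pass. For comparison, 30.0% of the 11690 genes in the microglial fit were higher and 31.9% were lower. The median change of the 47 tested members was 0.63, and that of all genes tested was -0.04. All 6 base ATPases and all 11 lid and other non-ATPase members were higher, with 7 of 8 alpha ring, 3 of 3 constitutive catalytic, 4 of 4 structural beta and 6 of 7 assembly chaperone genes. Of the inducible catalytic members Psmb8 and Psmb9 were lower, Psmb10 did not pass and Psmb11 was not tested. Without the 2 clusters of low marker score 38 members were higher and 2 lower.

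The constitutive catalytic members separated the groups in microglia without overlap. Psmb6, the caspase-like subunit gene, rose from 239, 253 and 249 to 545, 529 and 545 CPM (1.13 ± 0.05, adjusted p = 6.62e-14), and its change was 0.48 without the 2 clusters. Psmb5 rose from 120.1, 121 and 124 to 208, 224 and 239 CPM (0.88 ± 0.06, adjusted p = 4.92e-11). Psmb7 rose from 108, 103 and 106 to 186, 196 and 184 CPM (0.84 ± 0.05, adjusted p = 3.17e-11), or by 0.55 without them. Every MCAO library was above every sham library for each of the 3.

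The inducible partners of these genes did not rise with them. Psmb9, whose product takes the place of the Psmb6 product, fell from 126, 118 and 118 to 52.2, 55.0 and 47.2 CPM (-1.23 ± 0.07, adjusted p = 3.56e-12), on 338 to 683 UMIs per library. Psmb8 fell less, from 371, 372 and 335 to 299, 307 and 314 CPM (-0.23 ± 0.05, adjusted p = 0.00068), and its change was -0.39 without the 2 clusters. Psmb10 was at 154, 138 and 149.96 CPM in sham and 144, 147 and 141 in MCAO (-0.03 ± 0.05, adjusted p = 0.643), groups that overlapped. Within each pair the inducible gene thus made up less of the UMIs after MCAO. Psmb9 was 32.8% ± 1.42 of the UMIs of Psmb9 and Psmb6 in sham and 8.71% ± 0.720 in MCAO. Psmb8 was 74.7% ± 1.496 and 57.8% ± 1.11 of its pair with Psmb5, and Psmb10 58.2% ± 0.913 and 43.4% ± 0.347 of its pair with Psmb7.

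**Figure D2:**
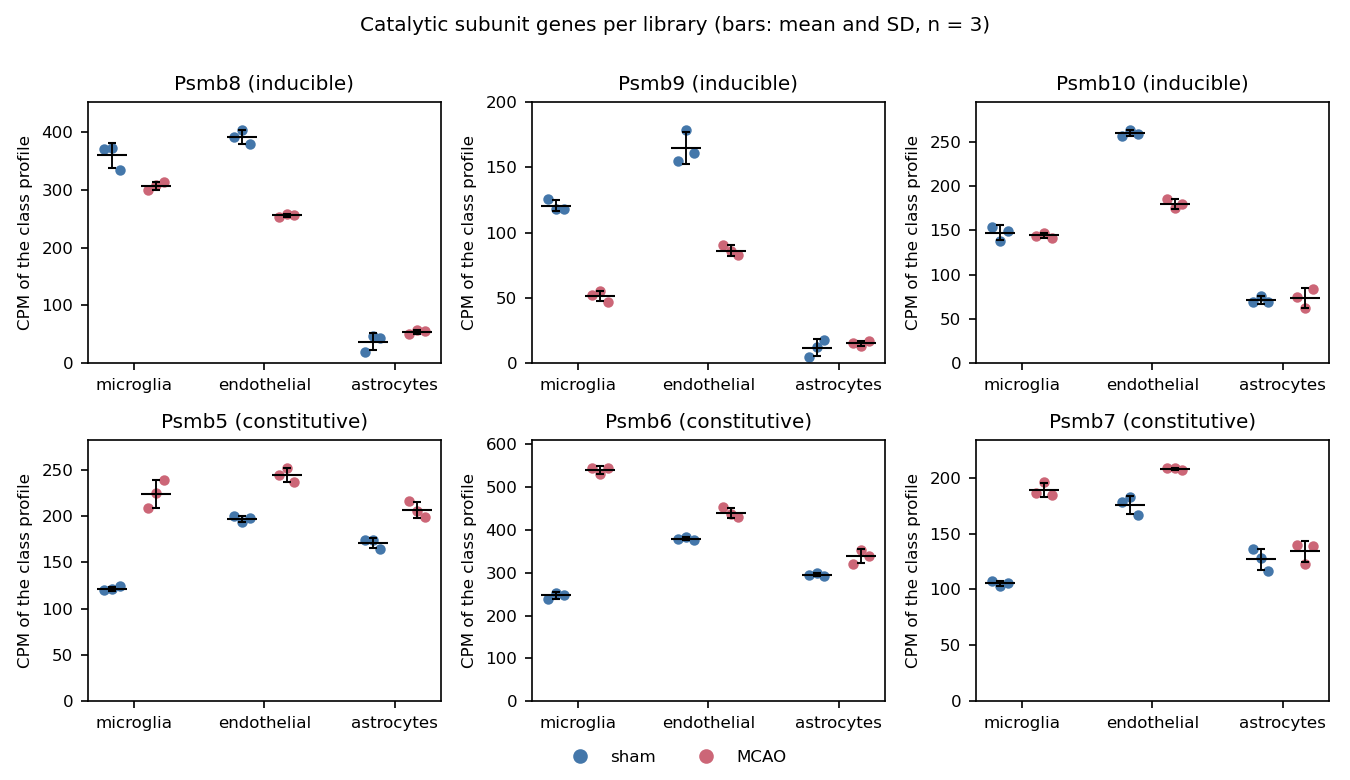
CPM of the inducible and constitutive catalytic subunit genes in the summed profiles of microglia, endothelial cells and astrocytes, with a point per library and the mean and SD over 3 libraries. In microglia Psmb6 lies at 239 to 253 CPM in sham and 529 to 545 in MCAO, and Psmb9 at 118 to 126 in sham and 47.2 to 55.0 in MCAO.

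The activator genes split in microglia. Psme2 rose from 246, 234 and 239.7 to 321, 339 and 331 CPM (0.46 ± 0.05, adjusted p = 6.28e-08), and its change was 0.26 without the 2 clusters. Psme1, its partner in the same ring, was at 257, 242 and 244 CPM in sham and 236, 250.3 and 250.4 in MCAO (-0.01 ± 0.05, adjusted p = 0.818), and the groups overlapped. Psme2 has a near copy in the gene table, Psme2b, which held 11.8%, 14.8% and 17.0% of the UMIs of both rows in sham and 6.57%, 6.63% and 5.64% in MCAO over all barcodes. Since reads may be split between the copies and this share differed between the groups, both the level and the change of Psme2 are uncertain. Psme3, which encodes a nuclear activator, rose from 35.2, 36.6 and 34.6 to 69.5, 68.4 and 78.6 CPM (1.02 ± 0.08, adjusted p = 8.77e-10). Psme4, another nuclear activator (-0.23 ± 0.16, adjusted p = 0.21), and Psmf1, an inhibitor (0.02 ± 0.09, adjusted p = 0.894), did not pass.

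In the regulatory particle the highest change was that of Psmd14, the lid enzyme that removes ubiquitin chains from the substrate, which rose from 65.6, 66.0 and 64.1 to 156, 158 and 148 CPM (1.24 ± 0.06, adjusted p = 2.32e-13). The lowest among the lid and other non-ATPase genes was that of Psmd4, a ubiquitin receptor, which rose from 142, 146 and 144 to 194, 191 and 184 CPM (0.40 ± 0.05, adjusted p = 8.52e-07), with a change of 0.25 without the 2 clusters. Among the base ATPases, which unfold the substrate, Psmc5 had the highest change and rose from 104, 102 and 104 to 194, 210.1 and 207 CPM (0.98 ± 0.05, adjusted p = 3.28e-12). Psmc3 had the lowest and rose from 158, 158 and 149 to 209, 218 and 235 CPM (0.51 ± 0.05, adjusted p = 8.94e-08), with a change of 0.33 without the 2 clusters. The groups did not overlap for any of these 4 genes.

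The other core genes also rose, unevenly. In the alpha ring, which gates the core, Psma4 rose from 144, 149 and 131 to 264, 249.7 and 261 CPM (0.87 ± 0.05, adjusted p = 3.83e-11) and Psma1 from 192, 184 and 191 to 271, 278 and 264 CPM (0.52 ± 0.05, adjusted p = 1.25e-08), the highest and the lowest of the group. Among the structural beta genes the ends were Psmb4, which rose from 90.8, 83.1 and 82.1 to 174, 179.8 and 180.2 CPM (1.06 ± 0.06, adjusted p = 2.17e-12), and Psmb1, which rose from 257, 250.2 and 232 to 345, 339 and 329.8 CPM (0.46 ± 0.05, adjusted p = 1.44e-07). Without the 2 clusters the changes of Psma1 and Psmb1 were 0.31 and 0.27, both past the threshold. Over 15 alternatives, among them the one without the 2 clusters, Psma4 changed by 0.62 to 0.92 and Psmb4 by 0.72 to 1.13. Psmb5 changed by 0.62 to 0.94, Psmc5 by 0.76 to 1.02 and Psmd14 by 0.84 to 1.28, and these calls held.

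The assembly chaperones had a median change of 0.22, against 0.77 in the structural beta genes. Psmg1, which helps alpha rings form, rose from 22.7, 19.9 and 23.2 to 34.0, 33.5 and 38.0 CPM (0.67 ± 0.10, adjusted p = 8.7e-06). Psmd10, a chaperone of the base, had the lowest change that passed, from 42.7, 46.9 and 48.1 to 56.0, 51.4 and 51.0 CPM (0.20 ± 0.08, adjusted p = 0.0316). Its call was lost without sham library 1 (adjusted p = 0.0929), without MCAO library 1 (0.12), with DESeq2 and without the 2 clusters of low marker score (change 0.04, adjusted p = 0.772). Psmd5 did not pass (0.18 ± 0.08, adjusted p = 0.0604), although its MCAO libraries were all above its sham libraries.

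**Figure D3:**
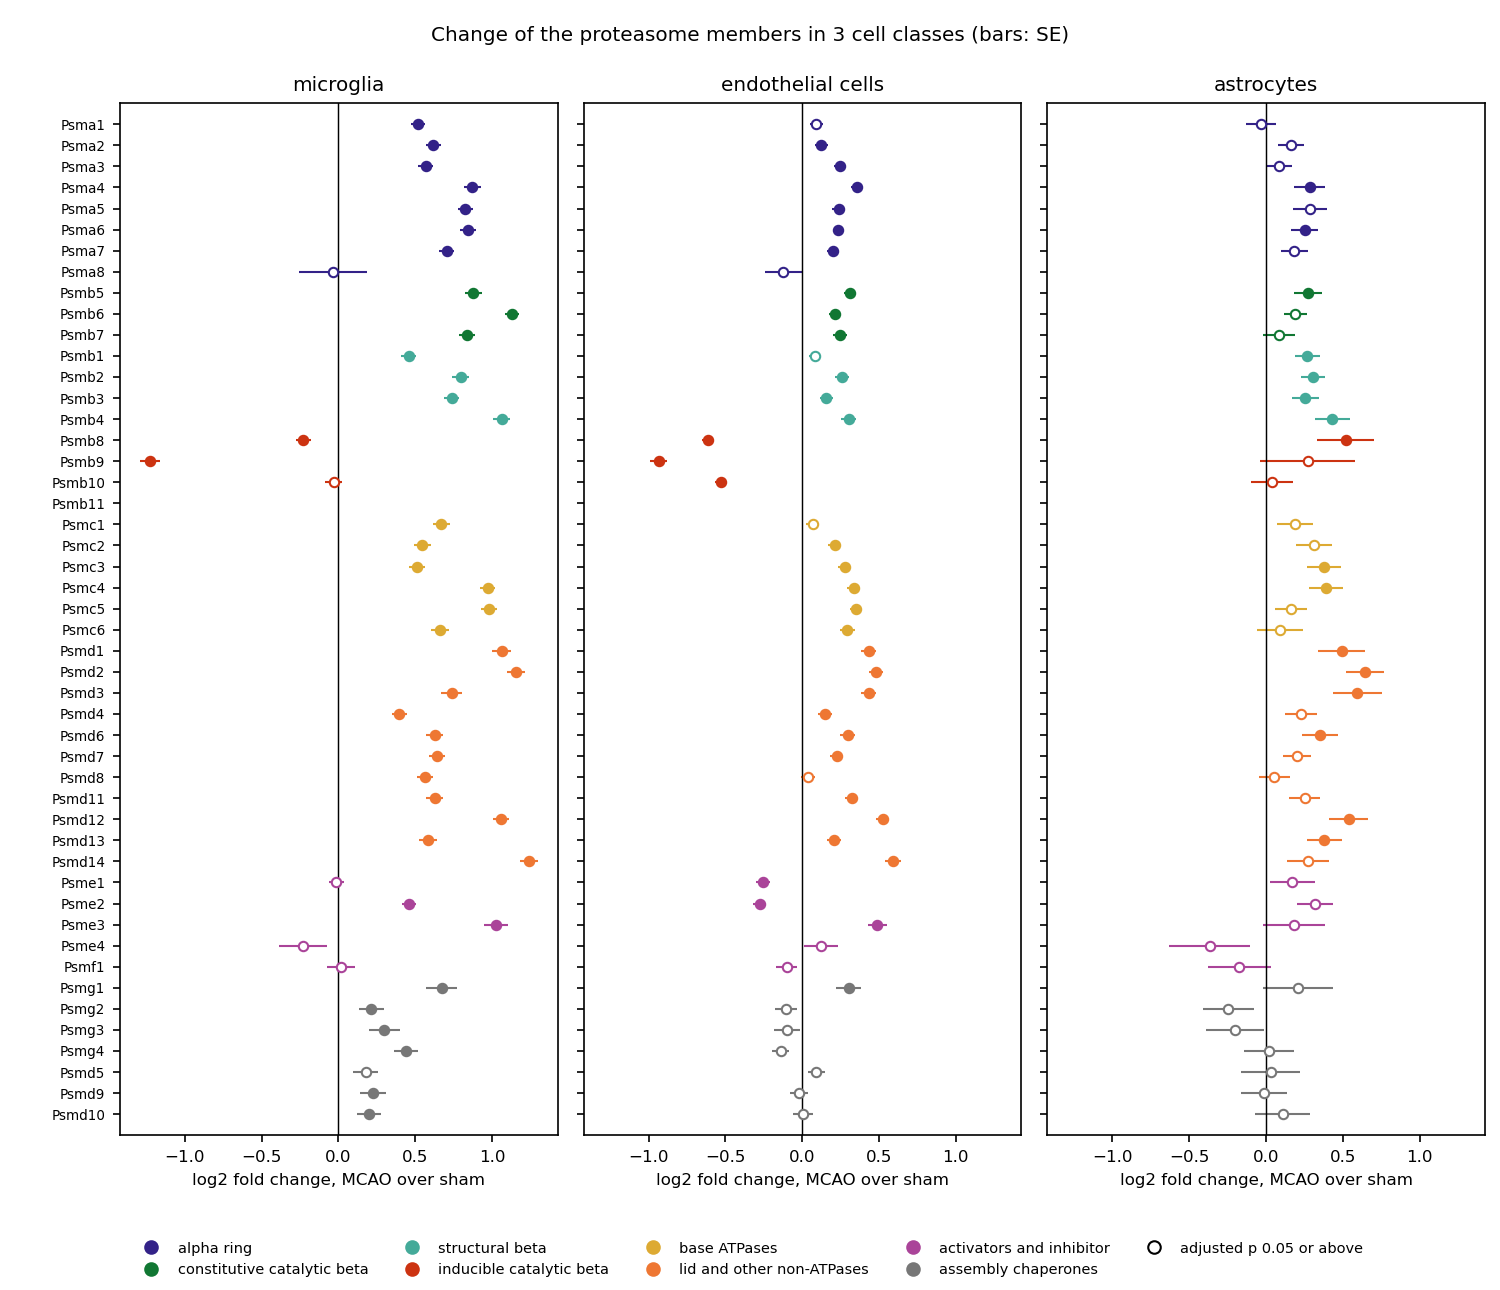
Log2 fold change of MCAO over sham with SE (bars) for each member in microglia, endothelial cells and astrocytes, coloured by role, with open circles where edgeR's adjusted p is 0.05 or above. Psmb8 and Psmb9 lie below 0 in microglia and endothelial cells, where Psmd14 has the highest change (1.24 and 0.59), and in astrocytes Psmd2 is highest (0.65).

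Endothelial cells, which line the vessels, had rises of 29 members and falls of 5, and 13 did not pass, against 24.2% higher and 22.6% lower of the 12499 genes tested. The median member changed by 0.21, and the median of all genes tested was -0.03. The 5 that fell were the inducible catalytic members Psmb8, Psmb9 and Psmb10 and both genes of the interferon-inducible activator, Psme1 and Psme2. Of the other 42 members tested, 29 were higher and 0 lower by edgeR, with 1, Psmg4, lower at an unadjusted p under 0.05 (-0.14 ± 0.06, adjusted p = 0.0507). DESeq2 called 5 members lower, the same genes as edgeR. The rises were in 6 of 8 alpha ring, 3 of 3 constitutive catalytic, 3 of 4 structural beta, 5 of 6 base and 10 of 11 lid and other non-ATPase genes, in Psme3 and in 1 of 7 assembly chaperones.

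The inducible members fell without overlap of the groups in endothelial cells. Psmb9 fell from 155, 179 and 161 to 90.4, 85.8 and 82.5 CPM (-0.93 ± 0.06, adjusted p = 1.1e-10). Psmb8 fell from 392, 404 and 379 to 253, 258 and 257 CPM (-0.61 ± 0.04, adjusted p = 2.65e-10). Psmb10 fell from 257, 264 and 259 to 186, 175 and 179.8 CPM (-0.53 ± 0.04, adjusted p = 2.92e-09). All 3 inducible partners were therefore lower here, whereas Psmb10 had not passed in microglia. Psme1 fell from 278, 290.0 and 263 to 223, 234 and 239.6 CPM (-0.25 ± 0.04, adjusted p = 0.000114) and Psme2 from 335, 329 and 332 to 283, 264 and 274 CPM (-0.28 ± 0.04, adjusted p = 1.18e-05). These 5 calls held in all 13 alternatives run. They are those of the whole class: within the cluster led by Car4, which held 66.3% of the sham cells and 4.43% of the MCAO cells, Psmb8 and Psmb9 were higher in every MCAO library than in every sham library, with the values given further on.

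The constitutive catalytic genes rose in endothelial cells, in the direction opposite to their inducible partners. Psmb5 rose from 199.6, 193 and 198 to 244, 252 and 237 CPM (0.31 ± 0.04, adjusted p = 3.58e-06). Psmb6 rose from 379, 383 and 377 to 453, 437 and 429.7 CPM (0.21 ± 0.04, adjusted p = 0.00014). Psmb7 rose from 178, 182 and 166 to 209, 208 and 207 CPM (0.25 ± 0.04, adjusted p = 0.000112). Every MCAO library was again above every sham library for these 3, and each change was smaller than in microglia by the test of the difference given further on. Psmd14 had the highest change and rose from 72.4, 69.2 and 69.4 to 105, 109.5 and 103 CPM (0.59 ± 0.05, adjusted p = 1.21e-08), and Psme3 rose from 36.5, 36.2 and 38.9 to 53.5, 51.2 and 52.3 CPM (0.49 ± 0.06, adjusted p = 3.33e-06). At the upper end of their groups, Psma4 rose by 0.36, Psmc5 by 0.35 and Psmb4 by 0.30. At the lower end, Psmc2 rose by 0.21 and Psmb3 by 0.16. Psmg1 was the assembly chaperone that rose (0.30 ± 0.08, adjusted p = 0.00557).

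The smallest endothelial calls depended on which libraries were used. Psma2 (0.12 ± 0.04, adjusted p = 0.0214) lost its call without sham 1, sham 3, MCAO 1 or MCAO 2, with an adjusted p of up to 0.0968. Psmd4 (0.15 ± 0.04, adjusted p = 0.00979) lost it without sham 3 or MCAO 1, with up to 0.0572. Psma1 (0.09 ± 0.04, adjusted p = 0.0644), Psmb1 (0.08 ± 0.04, adjusted p = 0.0789), Psmc1 (0.07 ± 0.04, adjusted p = 0.181) and Psmd8 (0.04 ± 0.05, adjusted p = 0.508), the members of the core, base and lid beside Psma8 that did not pass, were also the ones with the smallest changes in their groups.

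Astrocytes, glial cells that contact vessels and synapses, had rises of 16 members and falls of 0, and 30 did not pass, against 9.37% higher and 7.05% lower of the 9558 genes tested. At an unadjusted p under 0.05 edgeR's count was 25 higher and 0 lower. The median member changed by 0.22, and the median of all genes tested was -0.01. The count moved with the libraries and the tool: 6 were higher without sham 3, 8 without sham 1, 8 without MCAO 1, 9 without sham 2, 7 with mitochondrial UMIs held to 5% and 2 with DESeq2. Psmd2, the base scaffold gene, had the highest change and rose from 62.0, 70.9 and 77.2 to 118, 100.1 and 114 CPM (0.65 ± 0.12, adjusted p = 9.4e-05). It kept its call in all 13 alternatives.

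All 4 structural beta genes were higher in astrocytes. Psmb4 rose from 121, 114 and 97.8 to 158, 127 and 160.1 CPM (0.43 ± 0.11, adjusted p = 0.00417), a call lost without sham 3 and with DESeq2, and Psmb3 had the lowest change of the group (0.26 ± 0.09, adjusted p = 0.0361). Of the 11 lid and other non-ATPase genes 6 were higher, from Psmd6 (0.35 ± 0.12, adjusted p = 0.0306) to Psmd2. The base ATPases Psmc4 (0.39 ± 0.11, adjusted p = 0.0104) and Psmc3 (0.38 ± 0.11, adjusted p = 0.0138) and the alpha ring genes Psma4 (0.28 ± 0.10, adjusted p = 0.0424) and Psma6 (0.25 ± 0.09, adjusted p = 0.0398) passed too. Most of these calls were close to the threshold: Psmc3 and Psmc4 were lost in 4 of 13 alternatives each, Psmb3 in 5, Psmd6 in 7 and Psma4 and Psma6 in 8 each, among them some that left out a library. None of the activators or assembly chaperones passed.

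The inducible members were low in astrocytes. Psmb8 was at 19.9, 47.6 and 42.9 CPM in sham and 50.3, 56.9 and 55.4 in MCAO, on 17 to 101 UMIs per library (0.52 ± 0.19, adjusted p = 0.0493). The call was lost in 7 of 13 alternatives, and without sham 1, the lowest library, the change was 0.26 (adjusted p = 0.388). Psmb9 was at 4.68, 12.7 and 18.0 CPM in sham and 15.5, 13.1 and 16.6 in MCAO, on 4 to 31 UMIs (0.27 ± 0.31, adjusted p = 0.623). The groups overlapped for Psmb9, and also for Psmb10, at 69.1, 76.2 and 68.7 and 74.3, 62.0 and 84.4 CPM (0.04 ± 0.14, adjusted p = 0.885). The level of Psmb8 was 2.11% to 5.77% of that in monocyte-derived cells in sham, and 5.29% to 6.92% of that in T or NK lymphocytes in MCAO, the classes where it was highest. Of the markers of monocyte-derived cells 5 of 9 were higher in astrocytes (145 to 194 and 277 to 406 CPM in all), and of the erythrocyte markers 4 of 5 (9 to 39 and 109 to 132 CPM). Of the microglia markers 5 of 10 were lower there (651 to 910 and 580 to 674 CPM). The part of these markers in the level of Psmb8 was not tested.

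Psmb5 was the constitutive catalytic gene that passed in astrocytes. It rose from 174, 175 and 165 to 216, 206 and 199 CPM (0.28 ± 0.09, adjusted p = 0.0287), a call lost in 7 of 13 alternatives. Psmb6 was at 295, 299 and 293 CPM in sham and 321, 354 and 339.9 in MCAO (0.19 ± 0.08, adjusted p = 0.0811). Psmb7 was at 136, 128 and 117 and 140.0, 123 and 139 (0.09 ± 0.11, adjusted p = 0.657). The groups of Psmb7 overlapped and those of Psmb6 did not. The activator genes did not pass, with Psme2 at 77.3, 92.0 and 88.4 and 101, 106 and 118 CPM (0.32 ± 0.12, adjusted p = 0.0563) and Psme1 at 46.8, 59.2 and 59.2 and 58.8, 66.0 and 63.4 (0.17 ± 0.15, adjusted p = 0.489).

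In the other 9 classes together 78 calls of members were higher, most of them in border macrophages (32) and smooth muscle cells (21), and 11 were lower. The shares of all genes stand beside the counts of each class below. Border macrophages, which live along vessels and in the meninges, had 32 higher and 1 lower of 46 tested members (16.9% and 14.5% of all genes), with a median of 0.57. Psmd2 rose from 49.0, 34.8 and 43.2 to 99.8, 103 and 117 CPM (1.33 ± 0.18, adjusted p = 1.05e-07). Psme3 rose from 12.7, 23.2 and 26.5 to 53.7, 48.5 and 57.6 CPM (1.31 ± 0.24, adjusted p = 4.59e-05), and Psmd1, another scaffold of the base, by 1.27 ± 0.20. Psmb9 was the member that fell (-0.96 ± 0.14, adjusted p = 1.08e-06), while Psmb8 (0.10 ± 0.09, adjusted p = 0.433) and Psmb10 (0.08 ± 0.12, adjusted p = 0.672) did not pass. Smooth muscle cells had 21 higher and 0 lower of 46 tested members (10.9% and 9.47% of all genes), led by the lid genes Psmd3 (0.63 ± 0.15), Psmd6 (0.63 ± 0.12) and Psmd12 (0.59 ± 0.12). The calls of Psmd6 and Psmd12 were lost with mitochondrial UMIs held to 5% (adjusted p = 0.0786 and 0.36). DESeq2 called 12 higher in smooth muscle cells. Their own markers were lower in 6 of 7 (37144 to 38713 and 29010 to 30240 CPM), and astrocyte markers higher in 8 of 10 (222 to 268 and 609 to 623 CPM).

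Monocyte-derived cells had 11 higher and 7 lower of 46 tested members (14.7% and 13.6% of all genes), the share lower being near that of all genes. Psmb9 fell from 355, 279.9 and 305 to 120.4, 103 and 126 CPM (-1.42 ± 0.13, adjusted p = 5.08e-08). Psmb8 (-0.57), Psmb10 (-0.41), Psme1 (-0.64) and Psme2 (-0.41) were lower as well, with Psma7 and Psmb4. The lid gene Psmd11 rose from 62.2, 83.7 and 76.2 to 154, 165 and 161 CPM (1.09 ± 0.16, adjusted p = 2.7e-05) and the alpha ring gene Psma6 from 241, 248 and 210.3 to 502, 479 and 433 CPM (1.01 ± 0.12, adjusted p = 1.29e-06). All 138 sham cells of this class lay in a cluster led by Plac8 and Ly6c2, whereas 79.9% of the MCAO cells lay in a cluster led by Arg1 that held 0 sham cells.

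Fewer calls were made in the remaining classes. Neutrophils had 0 higher and 2 lower of 35 tested members (12.8% and 13.3% of all genes). Psmb9 fell there from 166, 188 and 180.2 to 85.8, 53.5 and 89.0 CPM (-1.20 ± 0.26, adjusted p = 0.0013). Psme1 fell from 233, 196 and 133 to 114, 80.3 and 78.2 CPM (-1.04 ± 0.26, adjusted p = 0.00446), a call lost without sham 1 or MCAO 2 (adjusted p of up to 0.0758). The neutrophils' own markers were lower in 6 of 9 (317433 to 430641 and 117066 to 148306 CPM), and those of monocyte-derived cells summed to 16326 to 19978 and 5142 to 6521 CPM, with 3 of 9 lower. Their part in these falls was not tested. Pericytes, which wrap capillaries, had 8 higher and 0 lower of 42 tested members (9.02% and 6.04% of all genes). Their Psmb8 rose from 93.2, 62.2 and 77.4 to 182, 173 and 132 CPM (1.06 ± 0.26, adjusted p = 0.00395), on 7 to 11 sham UMIs per library, and its call was lost with DESeq2, with doublets kept and with coarser clusters. Psmb4 rose from 93.2, 88.8 and 134 to 204, 204 and 219.8 CPM (0.95 ± 0.22, adjusted p = 0.00246) and Psmd14 by 1.02 ± 0.32, the latter lost without sham 1, sham 3 or MCAO 3 and with DESeq2. The pericyte markers were lower in 4 of 8 (27544 to 28227 and 20833 to 21604 CPM), and the endothelial markers in 5 of 10 (3634 to 4502 and 1568 to 2147 CPM). DESeq2 called 2 members higher in pericytes.

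Oligodendrocytes had 5 higher and 0 lower of 45 tested members (11.4% and 10.5% of all genes). The structural beta gene Psmb2 rose from 375, 361 and 351 to 493, 538 and 441 CPM (0.44 ± 0.08, adjusted p = 3.13e-05), with Psmd12 (0.41 ± 0.13) and Psma6 (0.34 ± 0.09), and the call of Psmd12 was lost without sham 2 or MCAO 1, with DESeq2 and with mitochondrial UMIs held to 5%. The share of members that rose is near that of all genes, and DESeq2 called 2 higher. The oligodendrocyte markers were lower in 6 of 8 (73774 to 81488 and 52450 to 57710 CPM). Choroid plexus epithelium had 1 higher and 0 lower of 46 tested members (7.18% and 6.74% of all genes), the rise being that of Psmd11 (0.44 ± 0.11, adjusted p = 0.00733), which was lost without sham 1 and with DESeq2. Fibroblasts had 0 higher and 1 lower of 43 tested members (1.95% and 1.53% of all genes). Their Psmb9 fell from 77.5, 58.6 and 65.7 to 16.2, 8.86 and 39.2 CPM (-1.54 ± 0.40, adjusted p = 0.0337), on 2 to 22 UMIs per library, and its call was lost in 8 of 13 alternatives, including each that left out sham 1, sham 2, sham 3, MCAO 1 or MCAO 2. T or NK lymphocytes, in which the inducible members are high, had 0 higher and 0 lower of 41 tested members (3.20% and 3.20% of all genes) by edgeR, 0 by DESeq2 and 1, Psmd2, at an unadjusted p under 0.05. Their Psmb8 was at 880.1, 837 and 850.2 CPM in sham and 951, 972 and 800.5 in MCAO, groups that overlapped. Where edgeR counted 0 in a direction in these classes and in smooth muscle cells, DESeq2 counted 0 too. At an unadjusted p under 0.05 the same edgeR fits had 0 higher in neutrophils, 1 higher in fibroblasts, 0 lower in pericytes, 1 lower in smooth muscle cells, 0 lower in oligodendrocytes and 4 lower in choroid plexus epithelium.

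The balance of the RNA of the inducible and constitutive catalytic genes can be described within a class, with no test. Protein was not measured, so this is no measure of the particles themselves. The share is that of Psmb8, Psmb9 and Psmb10 among the UMIs of all 6 catalytic genes. In microglia it was 58.3%, 56.9% and 55.7% in sham, against 34.5%, 34.9% and 34.1% in MCAO. In endothelial cells it was 51.5%, 52.8% and 51.9% against 36.9%, 36.6% and 37.3%. Monocyte-derived cells went from 63.3% ± 1.82 to 50.02% ± 1.84, border macrophages from 59.2% ± 3.12 to 45.1% ± 0.275 and fibroblasts from 36.0% ± 4.73 to 24.9% ± 2.01. In these 5 classes every MCAO library was below every sham library. In the other 7 the groups overlapped, among them T or NK lymphocytes (67.4% ± 2.42 and 64.8% ± 2.10), neutrophils (61.1% ± 1.51 and 55.3% ± 6.28), astrocytes (16.8% ± 2.91 and 17.4% ± 1.29) and oligodendrocytes (6.22% ± 0.240 and 7.37% ± 1.39). Psmb9 as a share of its pair with Psmb6 was lower in every MCAO library in T or NK lymphocytes (42.5% ± 2.42 and 34.6% ± 1.61) and neutrophils (51.4% ± 3.19 and 34.8% ± 10.5). So it was in pericytes (9.09% ± 3.16 and 4.34% ± 0.752) and smooth muscle cells (3.36% ± 0.860 and 1.70% ± 0.691). In astrocytes, oligodendrocytes and choroid plexus epithelium that share overlapped. Psmb8 in its pair with Psmb5 was lower without overlap in none of the 7.

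**Figure D4:**
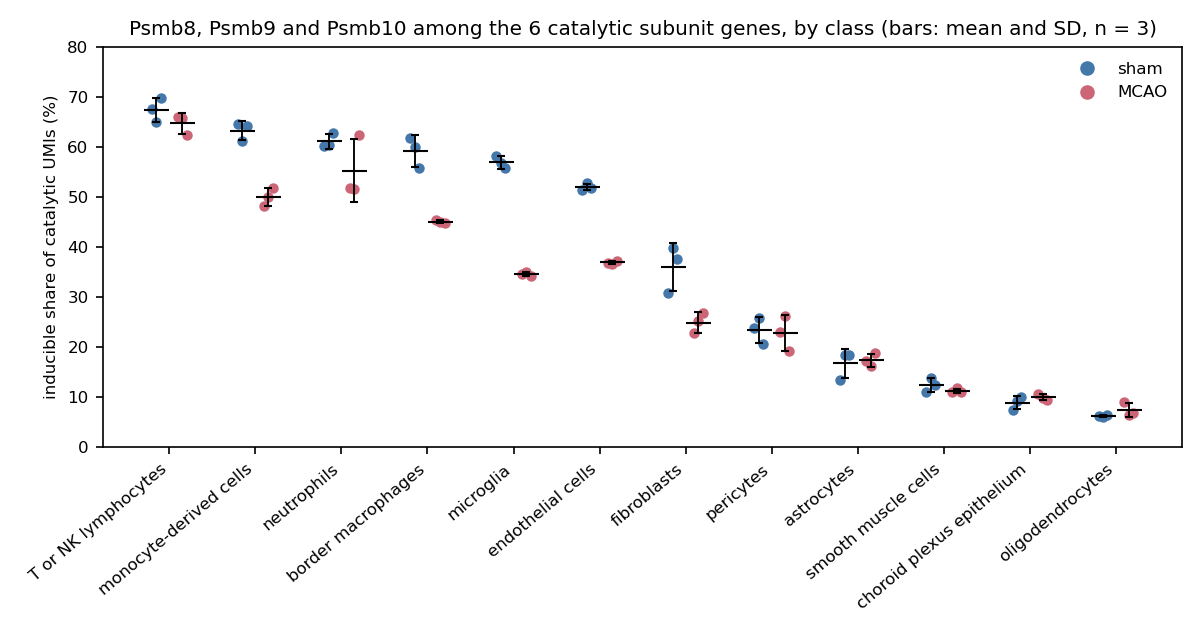
Share of Psmb8, Psmb9 and Psmb10 among the UMIs of the 6 catalytic subunit genes (percent) in each class, with a point per library and the mean and SD over 3 libraries. Microglia go from 56.9% to 34.5% and endothelial cells from 52.0% to 36.9%, while the groups of astrocytes and oligodendrocytes overlap.

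In both microglia clusters with enough cells of each group the share was lower in every MCAO library than in every sham library. In the P2ry12 cluster it was 57.3% ± 1.18 in 5647 sham cells and 51.0% ± 3.43 in 99 MCAO cells. The 99 were 23, 37 and 39 cells in MCAO libraries 1, 2 and 3, so the difference in this cluster rests on few cells. In the Ccl12 cluster it was 52.5% ± 2.05 in 261 sham cells and 40.1% ± 0.444 in 3141 MCAO cells. The MCAO cells of the Mmp12 cluster were at 30.7% ± 0.335. Psmb6 was at 343 ± 13.1 CPM (here without TMM scaling) in the MCAO cells of the Ccl12 cluster and 656 ± 7.08 in those of the Mmp12 cluster. Without the 2 clusters of low marker score the share of the whole class differed by -16.6 percentage points, in place of -22.4.

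In endothelial cells the clusters differed, and the share was not lower in MCAO within the 2 that held most of the sham cells. In the cluster led by Car4 and Hmcn1 it was 48.8% ± 0.999 in 8814 sham cells and 54.8% ± 1.57 in 504 MCAO cells, higher in every MCAO library. Psmb8 was at 346 ± 5.88 CPM in sham and 478 ± 23.4 in MCAO cells of that cluster, Psmb9 at 147 ± 16.1 and 214 ± 15.4, and Psmb6 at 393 ± 8.45 and 405 ± 23.0. In the cluster led by Slc26a10 and Edn1 the share was 56.2% ± 0.870 and 57.3% ± 2.54. Most MCAO endothelial cells lay in a cluster with Plat and Ccdc141 among its leading genes (46.1% of them), with a share of 36.4% ± 0.501, and in a cluster led by Lrg1 and Adamts9 (34.7%), with a share of 30.7% ± 0.765. In other clusters it was lower in every MCAO library: the Plat cluster had 47.3% ± 6.25 in its 120 sham cells, and a small cluster led by Plvap and Rbp7 went from 74.0% ± 1.79 in 151 sham cells to 59.1% ± 1.86 in 135 MCAO cells. In a cluster led by Vwf and Vcam1 the libraries overlapped (56.2% ± 2.35 and 53.2% ± 7.46). The change of the whole class therefore differs from that within its 2 clusters of most sham cells. Monocyte-derived cells had 63.3% ± 1.82 and 64.7% ± 2.26 in the Plac8 cluster and 47.0% ± 1.22 in the Arg1 cluster. Which cells of one group correspond to which of the other is not given by the clusters.

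**Figure D5:**
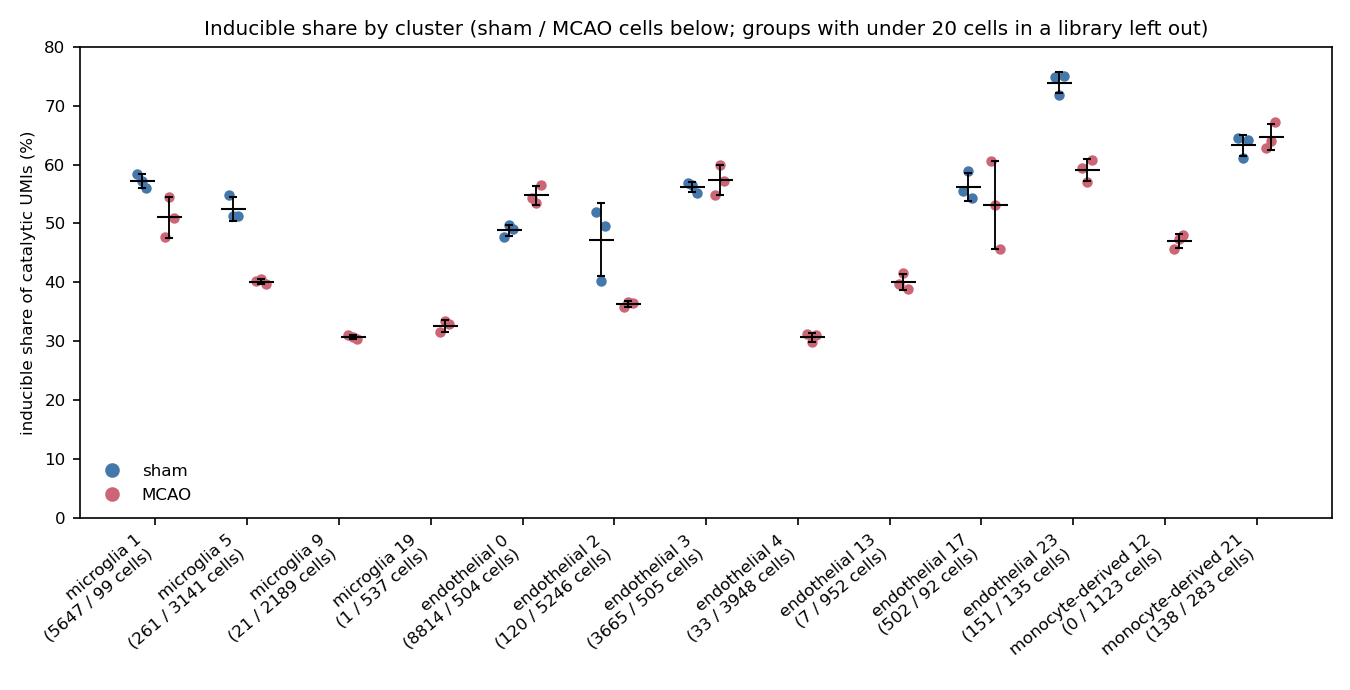
Share of Psmb8, Psmb9 and Psmb10 among catalytic UMIs (percent) by cluster, with a point per library and the mean and SD over 3 libraries. Groups with under 20 cells in a library are left out. Endothelial cluster 0, led by Car4, goes from 48.8% to 54.8%, while the MCAO cells of endothelial cluster 4, led by Lrg1, and microglia cluster 9, led by Mmp12, are at 30.7% ± 0.765 and 30.7% ± 0.335.

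All members together made up 0.5999% ± 0.00197 of microglial UMIs in sham and 0.825% ± 0.0116 in MCAO. Their share went from 0.519% ± 0.0120 to 0.716% ± 0.00620 in border macrophages, from 0.715% ± 0.0134 to 0.862% ± 0.0113 in pericytes and from 0.858% ± 0.00920 to 0.915% ± 0.0153 in endothelial cells. In monocyte-derived cells it was lower in MCAO, from 1.08% ± 0.0452 to 0.969% ± 0.00656. It was higher again in smooth muscle cells, from 0.567% ± 0.0107 to 0.670% ± 0.0214, and in astrocytes, from 0.514% ± 0.0147 to 0.555% ± 0.00657. The groups did not overlap in these 7 classes, and they overlapped in the other 5.

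Differences between the changes of a pair of classes were tested in a fit of both classes with library as a term. Those with microglia used the whole class and were not fitted without its 2 clusters of low marker score. Without them the change of Psmb6 in microglia was 0.48 in place of 1.13, so the size of these differences depends on the 2 clusters. The change of 42 of 47 members was greater in microglia than in endothelial cells, 1 was smaller and 4 did not pass, against 40.7% of all 13114 genes passing and 22.3% above 0. The median difference was 0.48 over the members and 0.03 over all genes. Psmb6 differed by 0.97 ± 0.05, adjusted p = 5.59e-20, Psmb5 by 0.62 ± 0.06 and Psmb7 by 0.64 ± 0.06. Psme2, which rose in microglia and fell in endothelial cells, differed by 0.79 ± 0.05, adjusted p = 3.01e-16, with the doubt about its near copy given above. Psmb8 (0.44 ± 0.05) and Psmb10 (0.55 ± 0.06) were above 0 too. Psmb9 was the member below 0 (-0.24 ± 0.08, adjusted p = 0.0108), a call lost without sham 1 or MCAO 1.

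Between astrocytes and endothelial cells the change of 5 of 47 members differed and 42 did not pass, against 9.37% of 13105 genes passing and 4.56% above 0. The 5 were Psmb9 (1.21 ± 0.28, adjusted p = 0.000924), Psmb8 (1.14 ± 0.17, adjusted p = 3.42e-08), Psme2 (0.60 ± 0.12, adjusted p = 5.46e-05), Psmb10 (0.58 ± 0.13, adjusted p = 0.00066) and Psme1 (0.43 ± 0.14, adjusted p = 0.0387), the same 5 genes that fell in endothelial cells, each with the higher change in astrocytes. The count was 4 with RLE factors and without sham 1, sham 2, MCAO 1, MCAO 2 or MCAO 3. The constitutive partners did not pass, with Psmb5 at -0.02 ± 0.09, adjusted p = 0.936, Psmb6 at -0.01 ± 0.08, adjusted p = 0.97 and Psmb7 at -0.15 ± 0.11, adjusted p = 0.468. Between microglia and astrocytes 25 were above 0, 2 below and 20 did not pass (25.4% of 12301 genes passed and 11.8% were above 0). The members below 0 were Psmb9 (-1.52 ± 0.29, adjusted p = 1.83e-05) and Psmb8 (-0.77 ± 0.18, adjusted p = 0.000528), while Psmb6 (0.91 ± 0.09, adjusted p = 5.53e-15) and Psmd14 (0.94 ± 0.15, adjusted p = 1.35e-07) were above 0.

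Genes that work with the proteasome under other symbols were counted in the same fits. Of all genes tested 30.0% were higher and 31.9% lower in microglia, 24.2% and 22.6% in endothelial cells and 9.37% and 7.05% in astrocytes. Of 9 partners, 7 were higher and 1 lower in microglia, 6 higher in endothelial cells and 2 higher in astrocytes. Adrm1, a ubiquitin receptor of the regulatory particle, rose in all 3, by 0.85 ± 0.05, 0.46 ± 0.04 and 0.66 ± 0.12. Zfand5, which encodes a protein that activates proteasomes, had the highest change of the list in microglia (0.98 ± 0.05). Akirin2, whose product brings proteasomes into the nucleus, fell there from 44.9, 67.2 and 53.3 to 13.9, 29.5 and 20.8 CPM (-1.37 ± 0.33, adjusted p = 0.0209). Pomp, the maturation factor of the core, rose in astrocytes by 0.42 ± 0.10.

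Of 13 ubiquitin genes and shuttles, 9 were higher and 2 lower in microglia, 7 higher and 1 lower in endothelial cells and 4 higher and 1 lower in astrocytes, against the same shares of all genes. The shuttle genes Ubqln4 and Ubqln2 went opposite ways in microglia (0.87 ± 0.14 and -0.45 ± 0.09) and in endothelial cells (0.58 ± 0.10 and -0.33 ± 0.07). In astrocytes Ubqln2 fell (-0.37 ± 0.13) and Vcp, whose product pulls ubiquitinated proteins out of complexes, rose (0.48 ± 0.10). Of 8 regulators of proteasome genes, 4 were higher and 1 lower in microglia, 5 higher and 1 lower in endothelial cells and 1 higher in astrocytes, where 2 were not tested. Maff, a small Maf gene, rose from 4.02, 5.08 and 3.98 to 32.8, 31.7 and 33.7 CPM (2.91 ± 0.14, adjusted p = 5.55e-13) in microglia and by 1.28 ± 0.06 in endothelial cells. Ngly1, the glycanase that acts on the Nfe2l1 product, fell by 0.26 and 0.17 in these classes. Nfe2l1 itself rose by 0.82 and 0.38, and Nfe2l2 rose in astrocytes by 0.36 ± 0.12.

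Of 13 regulators of the interferon response, 9 were lower in microglia, 2 higher and 8 lower in endothelial cells and 1 higher and 1 lower in astrocytes, where 1 was not tested. The shares of all genes, 31.9% lower in microglia and 22.6% in endothelial cells, stand beside these counts. In endothelial cells Irf7 had the lowest change and fell from 599, 617 and 606 to 293, 278 and 282 CPM (-1.09 ± 0.04, adjusted p = 5.1e-14), while Irf8 had the highest (0.88 ± 0.14). In astrocytes Irf1 rose (0.93 ± 0.33, adjusted p = 0.0421) and Irf7 fell (-0.54 ± 0.17, adjusted p = 0.0185). Of 11 genes for peptide loading onto MHC class I, 4 were higher and 5 lower in microglia and 4 higher and 5 lower in endothelial cells, the microglial counts being near the shares of all genes (30.0% and 31.9%). Calr, a chaperone of the endoplasmic reticulum, had the highest change in each (1.32 ± 0.06 and 0.93 ± 0.04), and Tapbpl, a peptide editor, the lowest (-0.48 ± 0.08 and -0.69 ± 0.06). In astrocytes 4 were higher, from Pdia3 (0.45 ± 0.08) to Tap1, a subunit of the peptide transporter, which rose from 12.9, 13.8 and 8.58 to 27.9, 33.6 and 31.4 CPM (1.42 ± 0.25, adjusted p = 2.63e-05). The part of these regulators in the changes of the members was not tested.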

How the data were processed

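Single-cell RNA of 3 sham and 3 MCAO libraries was measured as UMI counts per gene and barcode, deposited by the authors as whole-number matrices. Per the submitters' processing notes they used Cell Ranger and STAR with mm10 (versions not given in the sources used here). Barcodes with at least 300 genes and at most 10% mitochondrial UMIs were kept, and doublets were removed by simulated-doublet scores at 0.8% per 1000 barcodes (6.34% to 9.17% of barcodes). Cells were clustered on 2000 variable genes without the members (30 components, 20 neighbours, Leiden resolution 1) and named by markers that at least 25% of a cluster's cells detect, with at least 3 detected. Clusters were left unnamed where their leading genes held more markers of another class, as in the largest of them (954 cells, with markers of dendritic cells). They were also left unnamed where the score of another class was at least 0.3 and 0.45 of the cluster's own, a rule set after the clusters were seen. Counts were summed per library and class and fitted with edgeR 4.0.16 (filterByExpr, TMM, robust quasi-likelihood, group only), which needs limma 3.58.1, in R 4.3.3. DESeq2 1.42.0, RLE factors, no gene filter, each library left out, a replicate block, doublets kept, resolution 0.5, a mitochondrial limit of 5% and stricter microglia clusters were alternatives. The code was tested on simulated data.

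Members named with values are the catalytic and interferon-inducible ones, the highest and lowest called in each role group of the 3 main classes, up to 3 called in each other class and class differences of at least 1. Others named in the text, such as those that did not pass, were chosen after their values were seen. The members and lists were chosen with earlier results of these data known. Promoters are RefSeq's, and gene positions GENCODE's. Ependymal cells (1 cell in MCAO 2), erythrocytes and unnamed clusters were not tested. CPM has the precision of the UMIs behind it, which are printed where they are few.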

Additional observations from a re-analysis of the deposited data

Results flagged for a closer look

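The change of Psmb9 differed between astrocytes and both other main classes, and that of Psmb8 between astrocytes and endothelial cells, by at least 1 on the log2 scale. The change of Psmb8 was 1.14 ± 0.17 higher in astrocytes than in endothelial cells, and that of Psmb9 1.21 ± 0.28 higher. The change of Psmb9 in microglia differed from that in astrocytes by -1.52 ± 0.29. Each is a test of the difference itself, by edgeR with library as a term. Over 8 alternatives the values ran from 0.89 to 1.31, from 0.92 to 1.72 and from -2.03 to -1.18, all past the threshold. The endothelial changes are those of the whole class, and within its Car4 cluster Psmb8 was at 346 ± 5.88 CPM in sham and 478 ± 23.4 in MCAO, and Psmb9 at 147 ± 16.1 and 214 ± 15.4 (without TMM scaling). The Psmb9 values rest on 4 to 31 UMIs per library in astrocytes.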

How the results depend on the processing

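Over the 998 alternative values of 75 named results, 906 had the same call, 89 lost the call, 3 gained one and 0 passed in the other direction. Values that did not pass were counted as the same call whatever their sign, as for Psmb10 in microglia (-0.13 to 0.02). For 53 of the 75 no alternative changed the call. Counts of members higher ran from 36 to 40 in microglia, 27 to 31 in endothelial cells and 55 to 90 in the other classes. In astrocytes the 16 became 2 with DESeq2, 7 with mitochondrial UMIs held to 5% and 6 to 13 with a library left out. The 11 lower in other classes became 7 to 11 with a library left out, the fewest without sham 1, and 15 with doublets kept. The member whose change was below 0 in microglia minus endothelial cells, Psmb9, gave a count of 0 to 1, being lost without sham 1 or MCAO 1. The inducible share in microglia differed by -16.6 points without the 2 clusters of low marker score. Where a value does not show the cause, the cause was not tested. Same-numbered libraries did not deviate together (correlations from -0.143 to 0.0622), so the numbers were not taken as pairs, and correlations with another number reached 0.132. With the replicate block 39 members were higher and 2 lower in microglia, 29 and 5 in endothelial cells, 16 and 0 in astrocytes and 71 and 10 in the other classes. The block ended the calls of Psma4 in astrocytes (adjusted p = 0.0524) and Psmd14 in pericytes (0.0512). Depth limits the inducible genes in classes where a library had few of their UMIs, among them astrocytes, fibroblasts, pericytes and oligodendrocytes. In sham libraries Psmb8, Psmb9 and Psmb10 together had 25 to 28 UMIs in pericytes and 48 to 53 in oligodendrocytes.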
